A study of Mus musculus with 36 samples.

Results

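The mitosis genes described here are a list of 48 mouse genes whose products carry a cell through mitosis, from entry driven by the cyclin-dependent kinase Cdk1 to cytokinesis, and they were taken by name. Of these, 46 had a probe set and were followed, out of 17097 genes tested, and Ccnb1 and Nuf2 had none. The brightest probe set, by its mean over the 36 arrays, stands for its gene, and 27 of the 46 genes had further probe sets. The arrays measured total RNA of whole minced colon in 8 groups of mice that were 6 to 8 weeks old at the start. IL-17RC KO mice lack a working Il17rc, part of the receptor through which IL-17A and IL-17F signal, and WT mice are their wild-type counterparts. Per the labels, KO and WT each had 4 arrays of untreated colon (day 0), 4 of day 7, 4 of day 15 and 6 of tumors taken on day 63. The other groups were on a protocol of azoxymethane (AOM), a carcinogen that acts on the colon, followed by dextran sulfate sodium (DSS), which injures the colon lining. In full it holds 3 cycles of 5 days of 3% DSS in the water and 14 days of regular water, which is longer than 15 days, so the day 7 and day 15 groups were sampled before it was complete. How much DSS those groups had received by then is not stated in the labels. The labels state neither the deleted exons, nor the strain, nor whether the arrays of a group come from separate animals, so p-values reflect only how much these samples vary, which may in part be technical variation. Age and sampling time go with stage and cannot be told apart from the protocol.

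A dividing cell makes its mitotic proteins shortly before it needs them. The transcripts are low in resting and G1 cells and climb together in S and G2, and the level in a tissue is therefore commonly read as a measure of how many cells are cycling. In resting cells the promoters are held silent by the DREAM complex, and in G2 the activators MYBL2 and FOXM1 act through the same MuvB core. In the colon, division takes place mainly in the lower crypt, among stem cells and transit-amplifying progenitors. DSS damages these crypts, which then regrow, and the tumors of the AOM and DSS protocol are dividing epithelium. In bulk tissue, fewer dividing cells and less RNA per cell cannot be told apart.

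MuvB binds the cell cycle genes homology region (CHR) through its subunit LIN54, and the factor NF-Y, which binds CCAAT boxes, often acts beside it. Promoter windows from RefSeq (GRCm38.p6), from 250 bases before to 50 bases after the transcription start, were found for 40 of the 48 listed genes, as 43 windows. The genes without a window were Ccna2, Foxm1, Kif20a, Aurkb, Dlgap5, Tpx2, Pbk and Incenp. These 4 windows are shown because the genes carry the results below: Cdk1 (chr10:69352863-69353162, minus strand), Kif11 (chr19:37376132-37376431, plus strand), Top2a (chr11:99024140-99024439, minus strand) and Ube2c (chr2:164769679-164769978, plus strand). Capitals mark CHR letters (TTTGAA or TTCGAA, on either strand) and CCAAT boxes (CCAAT, on either strand).
Cdk1: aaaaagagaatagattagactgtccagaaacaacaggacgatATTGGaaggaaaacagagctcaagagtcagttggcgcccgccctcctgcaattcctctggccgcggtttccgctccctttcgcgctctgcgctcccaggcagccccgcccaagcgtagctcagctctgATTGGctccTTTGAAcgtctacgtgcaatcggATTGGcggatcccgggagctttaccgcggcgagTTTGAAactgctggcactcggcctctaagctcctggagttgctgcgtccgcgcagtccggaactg
Kif11: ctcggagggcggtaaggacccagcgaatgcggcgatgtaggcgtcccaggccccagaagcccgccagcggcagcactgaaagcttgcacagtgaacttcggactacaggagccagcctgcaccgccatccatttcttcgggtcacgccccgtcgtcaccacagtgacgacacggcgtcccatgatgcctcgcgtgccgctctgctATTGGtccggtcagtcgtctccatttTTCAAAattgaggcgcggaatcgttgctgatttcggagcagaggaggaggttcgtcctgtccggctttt
Top2a: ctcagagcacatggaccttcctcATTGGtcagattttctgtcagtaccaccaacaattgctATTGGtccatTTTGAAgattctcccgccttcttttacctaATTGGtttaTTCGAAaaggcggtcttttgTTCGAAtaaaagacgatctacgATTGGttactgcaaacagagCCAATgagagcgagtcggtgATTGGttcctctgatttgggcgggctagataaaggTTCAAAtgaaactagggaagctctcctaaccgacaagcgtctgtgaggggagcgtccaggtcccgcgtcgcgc
Ube2c: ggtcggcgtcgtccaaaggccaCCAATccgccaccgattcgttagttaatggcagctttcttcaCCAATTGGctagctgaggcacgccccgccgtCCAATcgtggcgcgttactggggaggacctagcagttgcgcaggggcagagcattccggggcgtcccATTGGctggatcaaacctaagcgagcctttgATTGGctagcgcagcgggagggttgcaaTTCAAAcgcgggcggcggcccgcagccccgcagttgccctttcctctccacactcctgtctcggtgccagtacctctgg

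The Cdk1 window holds 2 CHR matches and 3 CCAAT boxes, Kif11 1 and 1, Top2a 4 and 6, and Ube2c 1 and 6, where in Ube2c a pair of the boxes overlap on opposite strands. CHR letters were found in 32 of the 43 windows of the mitosis genes (74.4%), against 6316 of all 32851 windows (19.2%). Within 50 bases on either side of the start the shares were 69.8% and 5.3%. At least 1 CCAAT box was present in 72.1% of the mitosis windows and 37.4% of all windows, and 2 or more boxes in 51.2% and 11.7%. Both motifs stood in 62.8% of the mitosis windows and 7.5% of all windows. The windows shown all hold both, while those of some other genes named below, among them Birc5, Mad2l1 and Nusap1, hold neither. A match is a description of these letters and not a measured binding site.

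**Figure D1:**
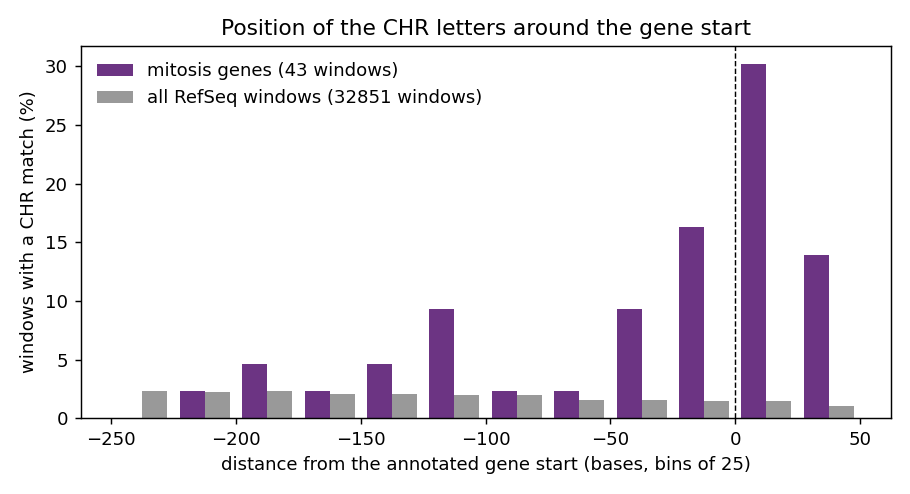
Share of promoter windows (percent, vertical axis) with a CHR match in each 25-base step from the transcription start (horizontal axis, bases), for the 43 windows of mitosis genes and for all 32851 windows. The mitosis genes peak in the 25 bases after the start at 30.23%, against 1.43% of all windows there.

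Some arrays stood apart before any comparison. Il17rc had a deposited intensity of 331 in the array labelled KO day 7 replicate 1 and 44 in replicate 2, while the other KO arrays had 7 to 15 and the WT arrays 76 to 515. The genotype label of replicate 1 goes against this value, so the day 7 group is called "labelled KO day 7", or "labelled KO" where day 7 is meant, below. Krt5, a keratin of squamous epithelium, was above 100 in 7 arrays, of which 3 were KO (day 7 replicates 1 and 2, tumor replicate 2) and 4 WT (untreated replicates 1 and 4, day 7 replicates 1 and 4). Day 15 replicate 4 had a summed intensity of epithelial marker genes of 30403 in KO and 30913 in WT, against 41335 to 45418 in the other day 15 arrays. Its sums of neutrophil marker genes were 22915 and 15662, against 669 to 4708. An alternative in the closing part leaves out replicate 4 of day 15. Among the mitosis genes themselves, WT day 15 replicate 1 was the lowest of its 4 arrays for 45 of 46 genes. KO tumor replicate 2 was the highest of its group for all 46 genes, WT tumor replicate 4 for 45, KO day 15 replicate 2 for 46 and KO untreated replicate 4 for 44. Counts of mitosis genes are also given without the single arrays that moved them by over 1.5 times, as a value or a range, here or in the closing part.

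Intensities are the authors' deposited linear values, and an array's median lay between 14 and 16, so values near 15 are close to background. Only Tacc3, with a mean of 12.7, had a mean below 16 among the 46 genes, against 36% of all genes. The brightest was Cks2 at 904.2, and the median of the 46 means was 117.8. Log2 differences are given ± SE, and "rose" or "fell" is used where limma's adjusted p was under 0.05 over all 17097 genes.

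The mean log2 level of the 46 genes traces their course. In untreated KO colons it was 6.84, 7.00, 7.08 and 7.45. In arrays labelled KO day 7 it was 5.61, 5.38, 5.27 and 5.31, below every untreated array. At day 15 the KO arrays had 7.02, 7.59, 6.70 and 6.72, back within or near the untreated range. KO tumors had 6.94 to 8.04 with a median of 7.27.
In untreated WT colons the mean log2 level was 7.20, 6.61, 7.23 and 6.60, and at day 7 it was 5.08, 5.53, 5.17 and 5.33. All 4 WT arrays at day 7 thus lay below all untreated ones, as in KO. At day 15 the WT values were 5.21, 6.42, 6.49 and 6.34. The first of these WT day 15 arrays lay at the day 7 level and the other 3 lay between day 7 and untreated. WT tumors had 7.06 to 7.78 with a median of 7.18.

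**Figure D2:**
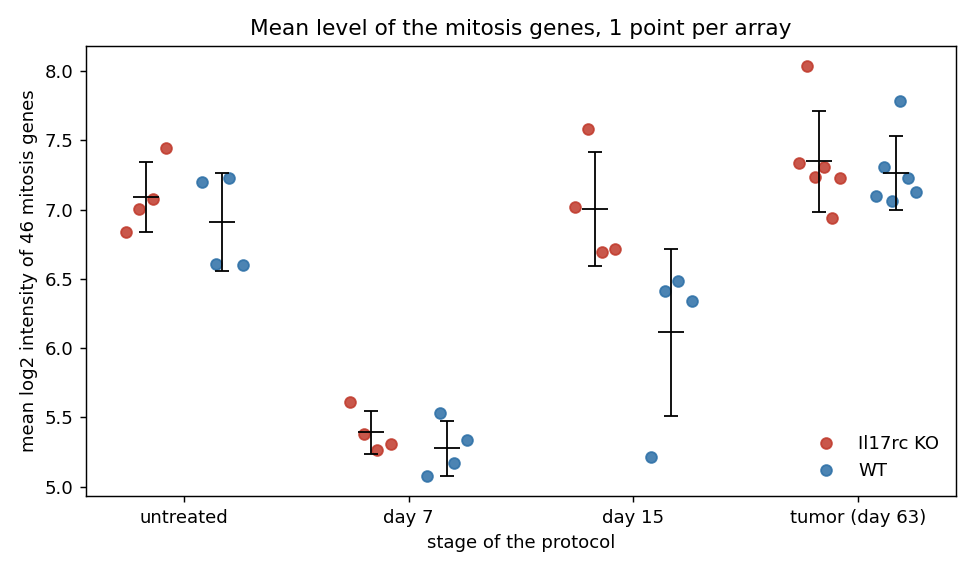
Mean log2 intensity of the 46 mitosis genes (vertical axis) in each of the 36 arrays by stage (horizontal axis), with KO left of WT at each stage, points for arrays and bars for the group mean ± SD. Both genotypes are low at day 7 (5.39 ± 0.15 in arrays labelled KO and 5.28 ± 0.20 in WT), and at day 15 KO stands at 7.00 ± 0.41 and WT at 6.11 ± 0.60.

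The 46 genes moved as a block. Over the 36 arrays, each gene's log2 level was correlated with the mean of the other 45, as a description over arrays that share stage and genotype. The median r was 0.966, 40 of the 46 genes were above 0.9, the highest was the passenger protein gene Birc5 at 0.988 and the lowest was the transcription factor gene Foxm1 at 0.616. With the 8 group means removed, the median r was 0.857 and the range 0.578 to 0.956, so arrays of 1 group also differed from each other in most of these genes at once. The genes outside the list that ran closest to its mean, among 10892 with a mean of at least 16, were Ncapg (r = 0.973), a condensin subunit, Asf1b (0.972), a histone chaperone, Ckap2l (0.971), a spindle protein, Sgo1 (0.969), which protects centromeric cohesin, and Ncaph (0.968), another condensin subunit. In all, 83 genes outside the list had r above 0.9, of which 27 are on a list of 58 other mitosis genes and 21 on a list of 45 DNA replication genes. The genes that ran most opposite were Tmem106b (-0.863), Pja2 (-0.85) and Rap2a (-0.847).

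**Figure D3:**
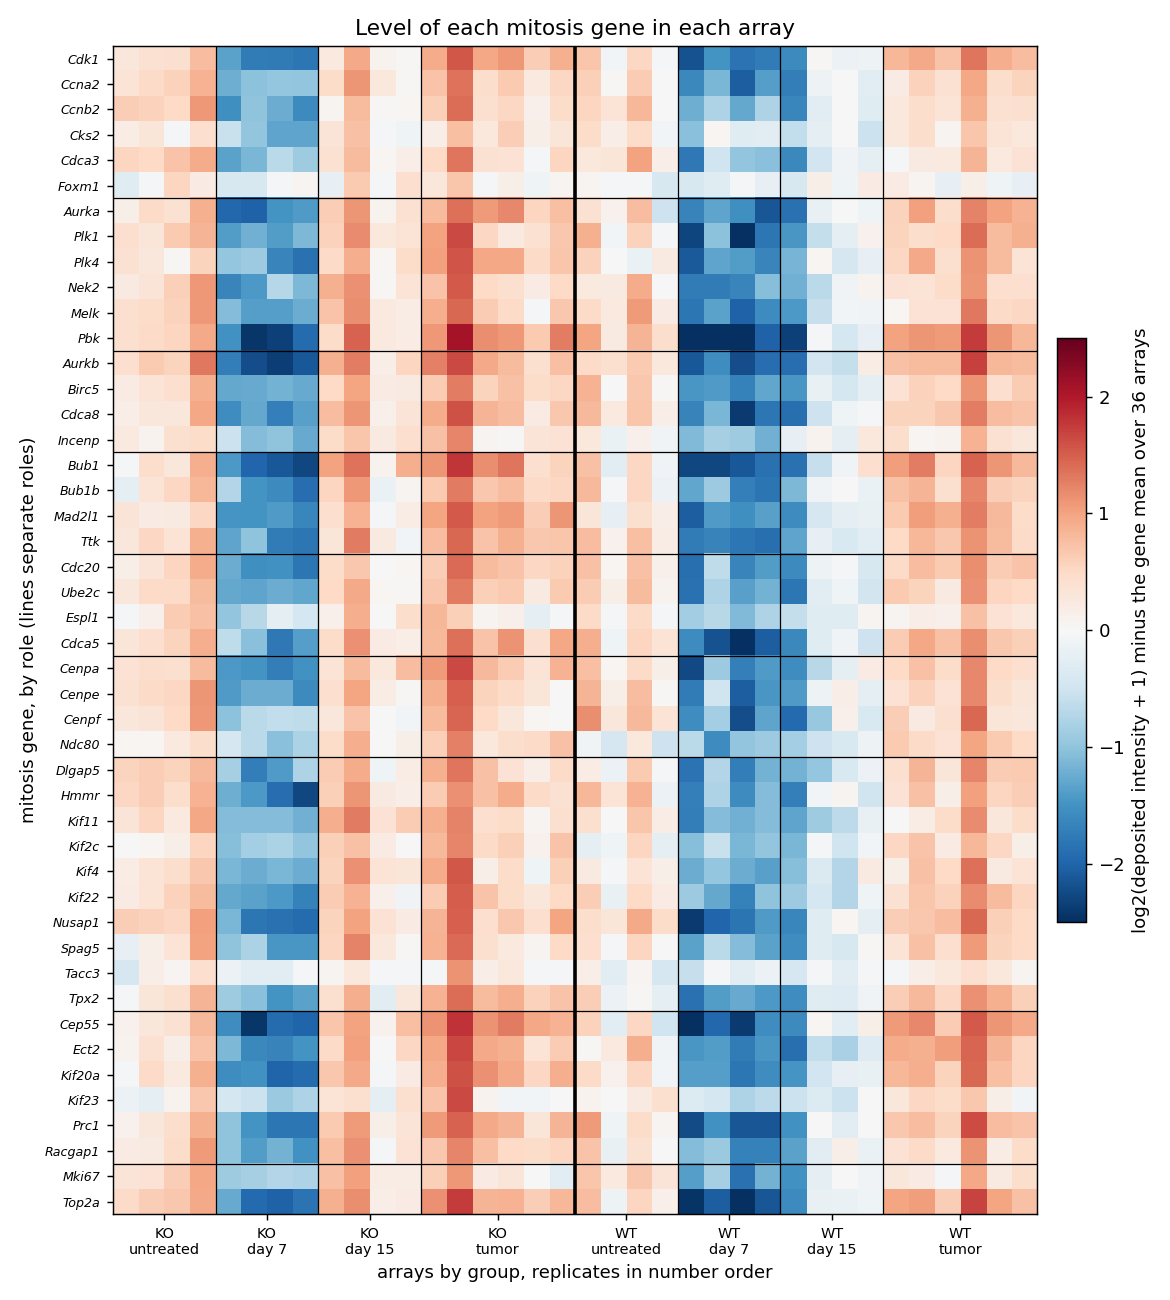
Log2 intensity of the 46 mitosis genes (rows, ordered by role) in the 36 arrays (columns, KO groups left of WT groups, each by stage) after subtracting each gene's mean over all arrays, with the colour scale in log2 units. The day 7 columns of both genotypes are low in almost every gene, as is WT day 15 replicate 1, and Foxm1 and Tacc3 vary little.

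Day 7 was compared with untreated colon within each labelled genotype. In arrays labelled KO day 7, 44 of the 46 mitosis genes fell and none rose, and in WT 40 fell and none rose. Over all genes tested, 6.58% were called lower in arrays labelled KO day 7 and 1.35% in WT. The median log2 difference of the 46 genes was -1.75 in labelled KO, a 3.36-fold lower level, and -1.65 in WT, a 3.14-fold lower level, while the median over all genes was 0.01 and 0.03. All 46 differences were negative in both labelled genotypes, and 40 genes passed in both. The groups of arrays did not overlap for 44 of the genes in labelled KO and 42 in WT, against 22.8% and 7.26% of all genes.

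Aurkb, the kinase of the chromosomal passenger complex, had 16, 11, 10 and 12 units in arrays labelled KO day 7, against 74, 87, 81 and 138 in untreated KO. Every day 7 array was near background and every untreated array well above it. It fell by 2.85 ± 0.30 log2 units (adjusted p = 9.67e-08), and since the day 7 values are near background the size depends on the pseudocount (-1.96 with 16 in place of 1). The WT arrays had 12, 18, 11 and 14 units at day 7, against 77, 73, 87 and 66 untreated (-2.38 ± 0.30, adjusted p = 8.19e-06), again without overlap, and with the mean of its probe sets the WT difference was -1.45.

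Pbk, a kinase of mitotic cells, had 52, 27, 29 and 39 units in arrays labelled KO day 7, against 198, 210, 217 and 290 in untreated KO (-2.58 ± 0.37, adjusted p = 1.5e-05). At day 7 the WT arrays had 16, 25, 26 and 36 units, against 299, 176, 270 and 203 untreated. This was the largest fall in WT, -3.06 ± 0.37 or 8.37-fold (adjusted p = 4.25e-06), and the groups did not overlap in either labelled genotype.

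Top2a, the topoisomerase that untangles chromosomes before they separate, had 146, 91, 86 and 98 units in arrays labelled KO day 7, against 494, 540, 567 and 686 in untreated KO. In WT it had 64, 84, 51 and 80 units at day 7, against 600, 325, 510 and 388 untreated. The highest day 7 array of each labelled genotype was less than the lowest untreated one. Top2a fell by 2.36 ± 0.29 in labelled KO (adjusted p = 1.14e-06) and by 2.52 ± 0.29 in WT (adjusted p = 1.46e-06). With the mean of its 3 probe sets, of which the others lie near background, the differences were -0.84 and -1.04 and still passed.

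Cdk1, the kinase that drives mitotic entry, had 140, 105, 104 and 101 units in arrays labelled KO day 7, against 431, 463, 472 and 607 in untreated KO. In WT it had 78, 125, 98 and 106 units at day 7, against 573, 341, 511 and 349 untreated. Both genotypes thus held about 100 units at day 7, with no overlap with the untreated arrays. The falls were 2.02 ± 0.26 in labelled KO (adjusted p = 2.35e-06) and 1.97 ± 0.26 in WT (adjusted p = 1.46e-05).

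Mki67, which coats mitotic chromosomes and encodes the antigen Ki-67, kept a higher remainder. It had 268, 278, 299 and 292 units in arrays labelled KO day 7, against 619, 641, 764 and 978 in untreated KO (-1.32 ± 0.27, adjusted p = 0.00116). In WT it had 190, 280, 135 and 217 units at day 7, against 809, 591, 791 and 618 untreated (-1.73 ± 0.27, adjusted p = 0.000155). The groups did not overlap, and the fold changes of 2.5 and 3.31 were smaller than those of Top2a, 5.12 and 5.74, on the same arrays, although levels and folds of different probe sets depend on their backgrounds.

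Cdca5 was the member with the largest estimated gap between the genotypes in its day 7 change. It had 77, 58, 34 and 46 units in arrays labelled KO day 7, against 149, 161, 178 and 226 in untreated KO, and 40, 26, 16 and 28 units in WT at day 7, against 228, 112, 176 and 154 in untreated WT. The groups did not overlap in either labelled genotype, and the WT values at day 7 were on the whole lower than the labelled KO values, a difference whose test is given below.

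**Figure D4:**
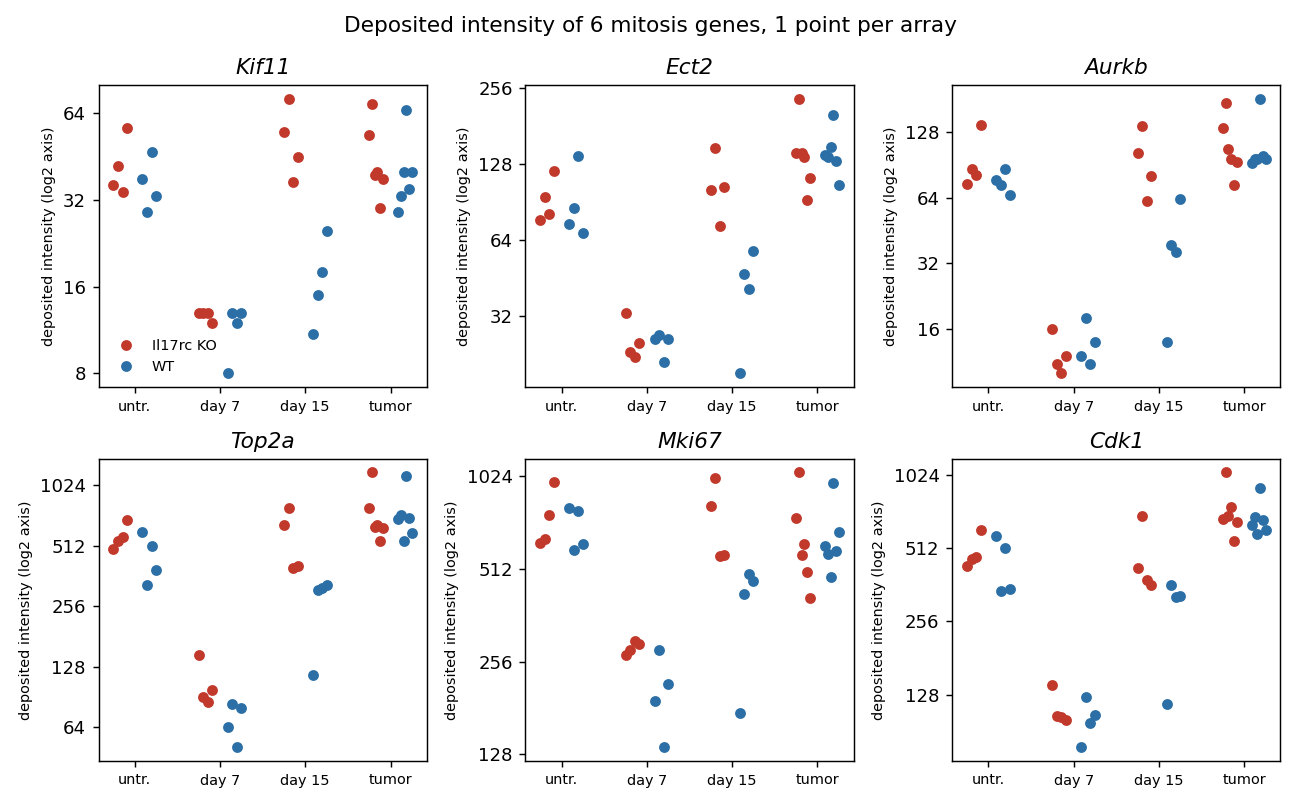
Deposited intensity (vertical axis, log2 scale) of Kif11, Ect2, Aurkb, Top2a, Mki67 and Cdk1 in each array by stage (horizontal axis), KO left of WT, 1 point per array. All 6 genes are lowest at day 7 in both labelled genotypes apart from WT day 15 replicate 1. The points of that array lie at or near those of the day 7 arrays, and for Top2a above every WT day 7 array.

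The fall at day 7 ran through every step of mitosis. Among the 6 genes of entry, 5 fell in labelled KO and 4 in WT, among them the cyclins Ccna2 (-1.53 ± 0.27 in labelled KO and -1.74 ± 0.27 in WT) and Ccnb2 (-1.94 ± 0.26 and -1.33 ± 0.26), the partners that activate Cdk1. All 6 kinase genes fell in both labelled genotypes, including Plk1 (-1.78 ± 0.32 and -2.21 ± 0.32) and Aurka (-2.15 ± 0.32 and -1.69 ± 0.32), which mature the centrosomes and spindle poles. The 4 chromosomal passenger genes fell in both, with Birc5, which encodes survivin, at -1.61 ± 0.24 and -1.72 ± 0.24. The 4 spindle checkpoint genes also fell in both, and Bub1, a kinase at unattached kinetochores, changed by -2.37 ± 0.35 and -2.33 ± 0.35.
Of the genes that release chromatids, all 4 fell in both labelled genotypes. Cdc20, which activates the anaphase-promoting complex (APC), changed by -1.91 ± 0.28 in labelled KO and -1.65 ± 0.28 in WT, and its ubiquitin-conjugating partner Ube2c by -1.73 ± 0.27 and -1.65 ± 0.27. Cdca5, which encodes sororin, a protector of sister chromatid cohesion, changed by -1.68 ± 0.31 and -2.48 ± 0.31. Of the 4 measured centromere and kinetochore genes, 4 fell in labelled KO and 3 in WT, including the centromeric histone Cenpa (-1.96 ± 0.28 and -1.76 ± 0.28). Of the 10 spindle and motor genes, 9 fell in labelled KO and 8 in WT, led in labelled KO by the microtubule bundler Nusap1 (-2.28 ± 0.29 and -2.29 ± 0.29). With the mean of their probe sets, of which the second lies near background, Nusap1 changed by -1.19 in labelled KO and -1.40 in WT and Bub1 by -1.23 and -1.30. Of the 6 cytokinesis genes, 6 fell in labelled KO and 5 in WT, including the abscission factor Cep55 (-2.33 ± 0.32 and -2.09 ± 0.32) and the spindle midzone bundler Prc1 (-1.89 ± 0.31 and -2.23 ± 0.31).

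A few members did not follow. Foxm1, the transcription factor of the G2 program, had 12 to 27 units over all 36 arrays and differed by -0.36 ± 0.19 in labelled KO (adjusted p = 0.261) and -0.15 ± 0.19 in WT (adjusted p = 0.804). Tacc3, a spindle stabilizer, had 8 to 28 units and differed by -0.28 ± 0.19 and -0.16 ± 0.19 (adjusted p = 0.41 and 0.784). Both probe sets lie near background, so the size of a change of the transcript cannot be given closely with them. Over the 36 arrays their r with the mean of the other members was 0.616 for Foxm1 and 0.73 for Tacc3. Cks2, a Cdk-binding subunit and the brightest member, had 581, 428, 341 and 342 units in arrays labelled KO day 7, against 969, 1050, 824 and 1146 in untreated KO, and fell (-1.20 ± 0.21, adjusted p = 0.000144). The WT arrays had 411, 883, 686 and 705 units at day 7, against 1172, 949, 1164 and 816 untreated. The WT groups overlapped and the difference of -0.63 ± 0.21 did not pass (adjusted p = 0.145), nor did those of Ndc80, Kif2c and Kif23 in WT, which were -0.76, -0.88 and -0.74.

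**Figure D5:**
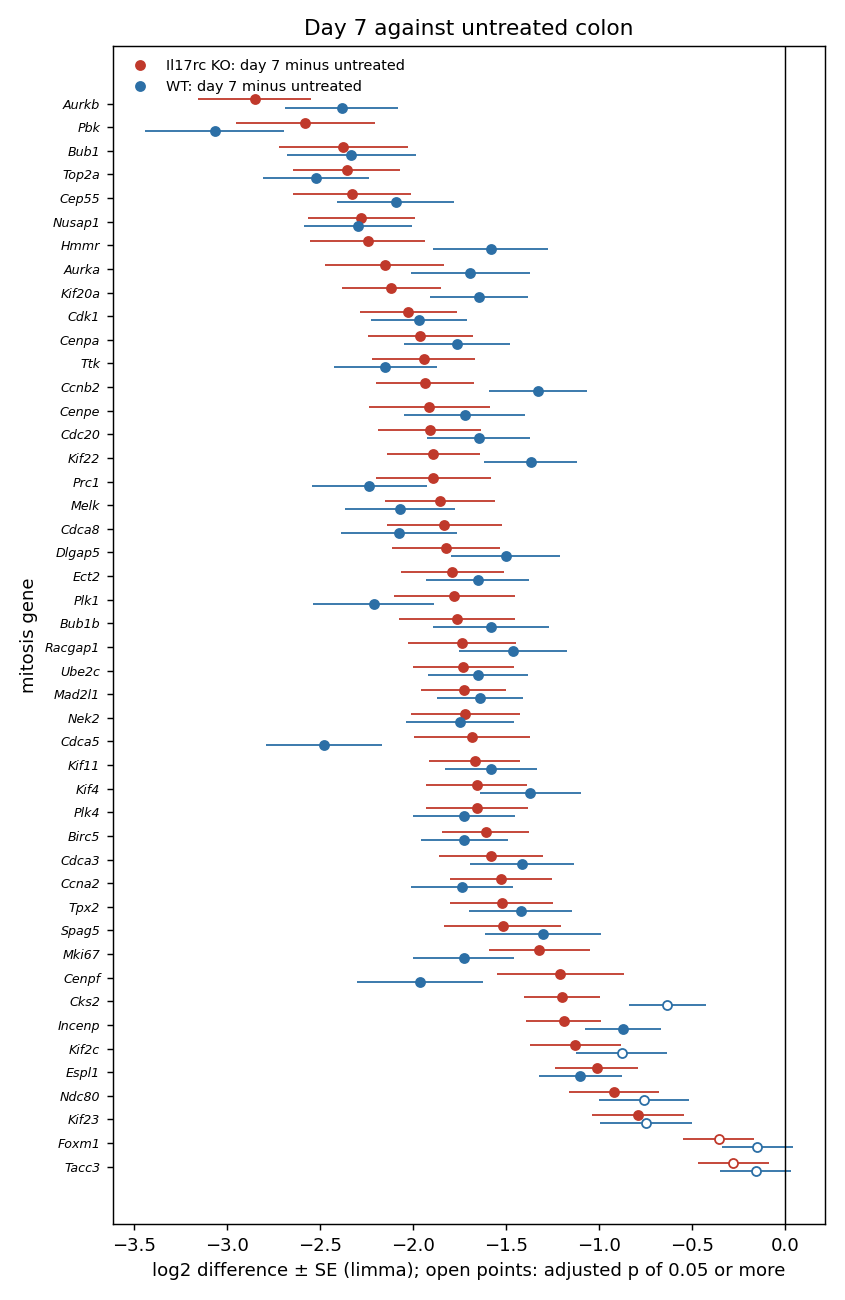
Log2 difference of day 7 minus untreated (horizontal axis) ± SE for each of the 46 mitosis genes (vertical axis, ordered by the labelled KO difference), in labelled KO and in WT, with open points where the adjusted p was 0.05 or more. All points lie below 0, from -2.85 to -0.28 in labelled KO and from -3.06 to -0.15 in WT.

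Across the 46 genes the day 7 differences of labelled KO and WT, which share no arrays, had r = 0.832, a description over genes that are not independent. The genotypes were then compared directly at day 7. None of the 46 genes passed between arrays labelled KO day 7 and WT day 7, where 0.298% of all genes did. The median difference was 0.08 and the range -0.62 (Cks2, adjusted p = 0.184) to 0.94. The test of whether the day 7 change itself differed by genotype passed for none of them either (2.37% of all genes, smallest adjusted p of a member 0.357), with estimates from -0.66 to 0.80 (Cdca5, 0.80 ± 0.44).
Without the arrays labelled KO day 7 replicates 1 and 2, 42 genes fell in labelled KO, with a median of -1.87. Without the 7 arrays high in Krt5, the counts were 42 in labelled KO and 20 in WT, with medians of -1.87 and -1.54. WT then had 2 arrays in each group, and the call of Mki67 ended (adjusted p = 0.0536). Further probe sets of the members gave the same direction. Of the 19 with a mean of at least 16, from 17 genes, 19 were lower in labelled KO at day 7 and 18 in WT.

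Genes next to mitosis in the cell cycle were lower too, with smaller medians. Of 58 other mitosis genes, 39 fell in arrays labelled KO day 7 and 30 in WT, with medians of -0.90 and -0.85. Examples are the kinetochore gene Spc25 (-2.28 ± 0.29 in labelled KO and -2.12 in WT) and the condensin subunit Ncapg (-2.11 ± 0.28 in labelled KO). Of 45 DNA replication genes, 39 fell in labelled KO and 30 in WT, with medians of -1.12 and -1.14, including the flap endonuclease Fen1 (-1.96 ± 0.24 in labelled KO) and the licensing factor Cdt1 (-1.60 ± 0.16 in WT). By contrast, of 14 core APC subunits and partners, 1 rose and 2 fell in labelled KO and 1 fell in WT, with medians of -0.08 and -0.11. The conjugating enzyme Ube2s fell in both (-0.51 ± 0.14, adjusted p = 0.0122, and -0.52, adjusted p = 0.0422). Of 16 regulators of G1, 4 fell in labelled KO and 2 in WT, and of 20 cell cycle inhibitors 2 rose and 5 fell in labelled KO and 1 rose and 1 fell in WT. Without arrays labelled KO day 7 replicates 1 and 2, 39 other mitosis and 35 DNA replication genes fell in labelled KO, and without the 7 arrays high in Krt5 9 of each list fell in WT.

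Marker genes of other cell types are given beside this result. Of 12 markers of colon epithelium, 1 rose and 1 fell in arrays labelled KO day 7, and none passed in WT. Their summed intensity was 38803 to 44527 in arrays labelled KO day 7 and 43659 to 48466 in untreated KO. Of 12 stem and crypt markers, 1 fell in labelled KO and 2 in WT. Their sums overlapped in labelled KO, at 771 to 1179 at day 7 and 1000 to 1177 untreated. In WT they were 510 to 802 at day 7, against 3685, 1096, 1005 and 1191 untreated, where 3685 belongs to replicate 1, an array high in Krt5. Of 12 macrophage markers, 9 fell in labelled KO, with sums of 700 to 1594 at day 7 and 2692 to 4179 untreated. None passed in WT, with sums of 1333 to 3571 at day 7 and 1264 to 2527 untreated. Of 10 T cell markers, 6 fell in labelled KO (sums 113 to 127 at day 7 and 379 to 506 untreated) and none in WT (sums 121 to 162 at day 7 and 114 to 127 untreated). Untreated WT was thus as low in T cell and about as low in macrophage markers as WT day 7, and untreated KO was higher in both. Of 10 smooth muscle markers, 1 rose in labelled KO, with a median of 0.72 and sums of 26667 to 49793 at day 7 and 24396 to 26811 untreated, and none passed in WT, with sums of 25801 to 43178 at day 7 and 28536 to 35823 untreated. Their part in the mitosis result was not tested.

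Day 15 was set against day 7 and against untreated colon within each genotype. In KO at day 15, 43 of the 46 genes were higher than in arrays labelled KO day 7 (12.5% of all genes were), with a median of 1.65, and the groups did not overlap for 45 genes (23.4% of all genes). Without arrays labelled KO day 7 replicates 1 and 2, 42 were higher, with a median of 1.79. None of the 46 differed between KO day 15 and untreated KO by limma (0.813% of all genes did), and none had an unadjusted p under 0.05. The median difference from untreated was -0.07, with a range of -0.48 to 0.28.
In WT, 15 genes rose between day 7 and day 15 (1.86% of all genes), with a median of 0.83, and all 46 differences were positive, while the groups did not overlap for 6 genes (7.81% of all genes). Against untreated WT, 13 were lower at day 15 (1.28% of all genes), with a median of -0.83, 45 of 46 differences were negative, and the groups did not overlap for 18 genes (7.81% of all genes). Those 13 were Cenpf, Pbk, Ect2, Kif11, Aurkb, Ube2c, Cdca8, Nusap1, Cdca3, Ccnb2, Ttk, Birc5 and Mki67. Over 51 alternatives the calls of Kif11, Ect2, Cenpf, Ube2c, Aurkb and Pbk were lost in 3, 4, 6, 7, 8 and 8, and that of Mki67 in 25 (adjusted p up to 0.372).

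WT day 15 replicate 1 bears on all of these WT values. It was at or below the highest WT day 7 array for 40 of the 46 genes, and replicates 2 to 4 were all above all WT day 7 arrays for 40 genes and all below all untreated WT arrays for 18. Without replicate 1, 29 genes rose between day 7 and day 15 in WT (median 1.14), and 1 was lower than untreated (median -0.52). Without the 7 arrays high in Krt5, 4 genes rose and 3 were lower than untreated.

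Marker genes of other cell types moved between day 7 and day 15 as well. In KO at day 15, 12 of 12 macrophage markers were higher than in arrays labelled KO day 7, with a median of 2.71 and sums of 4853 to 14679 at day 15 and 700 to 1594 at day 7. Of the T cell markers, 8 of 10 were higher (sums 294 to 652 and 113 to 127), as were 9 of 10 B cell markers (sums 251 to 2481 and 109 to 124) and 5 of 9 neutrophil markers. Lower in KO at day 15 were 8 of 10 smooth muscle markers (sums 12600 to 23070 and 26667 to 49793) and 3 of 12 epithelial markers, and of 12 stem and crypt markers 2 were higher and 1 lower. The share of all genes called lower is not given here, so these counts of lower markers cannot be set against it. In WT, 6 of 12 macrophage markers were higher at day 15 than at day 7 (sums 3491 to 8430 and 1333 to 3571), as were 1 of 10 T cell markers and 3 of 10 B cell markers, and no smooth muscle marker passed (sums 12012 to 24340 and 25801 to 43178). Without WT day 15 replicate 1, 2 macrophage markers and no T cell marker passed. Their part in the rise of the mitosis genes was not tested.

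Aurkb is an example of these courses. It had 103, 136, 62 and 80 units in KO at day 15, against 14, 39, 36 and 63 in WT at day 15. Untreated arrays had 74 to 138 units in KO and 66 to 87 in WT, so the KO arrays overlapped their untreated range and the WT arrays lay below theirs. Aurkb in KO was higher than in arrays labelled KO day 7 by 2.69 ± 0.30 (adjusted p = 5.02e-07, and 1.83 with a pseudocount of 16), and in WT at day 15 it was lower than untreated by -1.12 ± 0.30 (adjusted p = 0.0339).
Bub1 had 86, 110, 45 and 81 units in KO at day 15, against 15, 10, 9 and 8 in arrays labelled KO day 7. In WT it had 11, 28, 40 and 57 units at day 15, against 8, 8, 9 and 11 at day 7. Replicate 1 of WT day 15 lay at the level of the day 7 arrays, and the other day 15 arrays of both genotypes were higher. Bub1 was higher at day 15 in both (adjusted p = 0.00759 in WT), and since its day 7 values are at background the size cannot be given closely. It was 2.65 in KO and 1.61 in WT, and 1.71 and 0.91 with a pseudocount of 16. Top2a had 653, 789, 397 and 407 units in KO at day 15 and 116, 309, 316 and 326 in WT, and it was higher than at day 7 by 2.26 in KO and by 1.68 ± 0.29 in WT (adjusted p = 0.000822).

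Cenpf, a large kinetochore protein, had the largest difference between WT day 15 and untreated WT. It had 35, 71, 151 and 105 units in WT at day 15, against 311, 168, 242 and 174 in untreated WT, with every day 15 array lower (-1.42 ± 0.34, adjusted p = 0.0153). In KO it had 168, 227, 136 and 132 units at day 15, against 168, 173, 194 and 293 untreated, and these overlapped. Ube2c had 152, 439, 493 and 387 units in WT at day 15, against 832, 590, 925 and 569 untreated, again with every day 15 array lower (-1.09 ± 0.27, adjusted p = 0.0193). In KO its day 15 values of 757, 1037, 551 and 545 lay on both sides of the untreated values of 647, 743, 744 and 927.

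KO and WT were then compared at day 15. All 46 differences were positive, with a median of 0.94, a 1.91-fold higher level in KO, and the groups of arrays did not overlap for 22 genes, against 3.63% of all genes. Of the 46, 2 passed and were higher in KO (0.17% of all genes). The median difference over all genes was -0.01. The 46 genes move together from array to array, so their counts are not 46 separate observations.
Kif11, the motor that pushes the spindle poles apart, had 55, 72, 37 and 45 units in KO at day 15, against 11, 15, 18 and 25 in WT. Each KO array was above each WT array, and 2 of the WT arrays were at background. The difference was 1.46 ± 0.25 (adjusted p = 0.0057), a size that depends on the background, since it was 0.95 with a pseudocount of 16 and 0.92 with the mean of its probe sets, and passed in both. Ect2, the exchange factor that starts the cytokinetic furrow, had 101, 148, 73 and 104 units in KO, against 19, 47, 41 and 58 in WT. The groups again did not overlap, and the difference was 1.29 ± 0.28 (adjusted p = 0.0382). It was 1.01 with a pseudocount of 16 and did not pass (adjusted p = 0.0511).

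The remaining members followed in the same direction without passing. Aurkb differed by 1.28 ± 0.30 (adjusted p = 0.0633), Birc5 by 1.02 ± 0.24 (adjusted p = 0.0554) and Mad2l1, a spindle checkpoint effector, by 0.93 ± 0.23 (adjusted p = 0.0771). Plk1 had 109, 166, 87 and 92 units in KO, against 26, 48, 62 and 78 in WT, without overlap (1.0 ± 0.32, adjusted p = 0.21). Mki67 had 821, 1008, 563 and 567 units in KO, against 174, 424, 491 and 466 in WT, also without overlap (0.96 ± 0.27, adjusted p = 0.143). For Cdk1, with 424, 691, 378 and 362 units in KO and 117, 362, 323 and 324 in WT, the highest WT array reached the lowest KO array (0.76 ± 0.26, adjusted p = 0.238). By role, the medians ran from 0.76 for the entry genes to 1.08 for the passenger genes.

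The difference at day 15 depended on single arrays. Without WT day 15 replicate 1, none of the 46 genes passed, the median was 0.59, all 46 differences were still positive, Kif11 differed by 1.30 (adjusted p = 0.058) and Ect2 by 0.96 (adjusted p = 0.219). The adjusted p of Ect2 was also above 0.05 without KO day 15 replicate 1 (0.0992), 2 (0.141) or 4 (0.0541), without WT day 15 replicate 3 (0.0666) or without WT tumor replicate 5 (0.0504). Fitted to the arrays of day 15 alone, Kif11 had adjusted p = 0.332 and Ect2 0.73, and no member passed. The test of whether the change since untreated differed by genotype passed for none of the 46 genes (0.0819% of all genes, smallest adjusted p of a member 0.228). All 46 estimates were positive, with a median of 0.73, and 45 with a median of 0.45 without WT day 15 replicate 1. Before the protocol the KO arrays were slightly higher in 41 of the 46 genes, with a median of 0.18, and none passed (2.28% of all genes).

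The DNA replication genes showed the same direction. Of 45, 3 were higher in KO than in WT at day 15, with a median of 0.78 over the list, namely Fen1 (1.19 ± 0.24, adjusted p = 0.0288) and the polymerase subunits Pola1 (1.25 ± 0.28, adjusted p = 0.0469) and Pole (1.17 ± 0.26, adjusted p = 0.0476). Without WT day 15 replicate 1 none of the 45 passed, the median was 0.60, and these genes differed by 1.08 (adjusted p = 0.133), 1.10 (0.219) and 1.02 (0.239). Some replication genes also passed at day 7, higher in labelled KO than in WT, where 0.298% of all genes passed in either direction. Examples are Cdt1 (0.92 ± 0.16, adjusted p = 0.00536), Mcm4 (1.24 ± 0.24, 0.0112) and Timeless (1.02 ± 0.22, 0.0339). Lower estimates there, such as Pole2 (-0.33 ± 0.24, 0.673), did not pass. For Cdt1, Mcm4 and Timeless the genotype difference in the day 7 change did not pass (adjusted p = 0.242, 0.314 and 0.203). The mean log2 level of the 45 genes was 5.935, 5.4, 5.201 and 5.561 in arrays labelled KO day 7. In WT at day 7 it was 5.089, 5.107, 5.213 and 5.177. The highest of these values, 5.935, belongs to labelled KO replicate 1, whose Il17rc is in the WT range. These day 7 calls come from the fit with that array kept, so they cannot be assigned to genotype. At day 15 none of the 58 other mitosis genes passed, and their median was 0.62. Of the marker lists at day 15, 1 of 10 T cell markers was higher in KO, and none of the epithelial, smooth muscle, macrophage or stem and crypt markers passed. In WT at day 15 against untreated WT, 6 of 12 macrophage markers and 3 of 10 T cell markers rose, with macrophage sums of 3491 to 8430 at day 15 and 1264 to 2527 untreated. Of each of these lists 1 marker rose without WT day 15 replicate 1. Their part in the level of the mitosis genes was not tested.

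Tumors at day 63 were compared with untreated colon and with day 15. In KO tumors 2 of the 46 genes rose against untreated KO and none fell, and in WT tumors 6 rose and none fell. Over all genes tested, 10.8% rose in KO tumors and 12.6% in WT tumors. The medians of the 46 genes were 0.21 in KO and 0.33 in WT, with 39 and 43 positive differences, and the groups did not overlap for 2 genes in KO (20.3% of all genes) and 3 in WT (14.7%). The share of members called was thus below the background in KO and near it in WT.

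Cep55 had a lowest, median and highest intensity of 258, 307.5 and 494 in KO tumors, against 151, 171, 183 and 247 in untreated KO. In WT tumors the values were 217, 298 and 405, against 208, 117, 202 and 99 in untreated WT. Tumors lay above untreated colon in both genotypes, by a narrow gap in each. Cep55 rose by 0.80 ± 0.29 in KO (1.74-fold, adjusted p = 0.0457) and by 1.02 ± 0.29 in WT (2.03-fold, adjusted p = 0.00948). The KO call ended under 18 of 51 alternatives, with adjusted p up to 0.143.
Mad2l1 had a lowest, median and highest intensity of 514, 687.5 and 967 in KO tumors, against 418, 388, 389 and 481 in untreated KO. In WT tumors the values were 462, 602.5 and 812, against 415, 291, 439 and 374 untreated. No tumor array overlapped with the untreated arrays of its genotype. The rises were 0.76 ± 0.21 in KO (1.70-fold, adjusted p = 0.00779) and 0.71 ± 0.21 in WT (adjusted p = 0.013), and the KO call held in all 51 alternatives.

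The other 4 genes that rose in WT tumors were Ndc80, a kinetochore subunit that grips microtubules (0.78 ± 0.22, adjusted p = 0.00975), the spindle assembly factor Tpx2 (0.70 ± 0.25, adjusted p = 0.0445), Ect2 (0.68 ± 0.25, adjusted p = 0.0479) and Cdk1 (0.65 ± 0.24, adjusted p = 0.044). Of these, Ndc80, Tpx2 and Ect2 overlapped with untreated WT on the normalized values, and Ect2 lost its call under 26 of 51 alternatives. Of these 6 calls, 1 was left without WT untreated replicate 4, 2 without WT untreated replicate 2, 3 without WT tumor replicate 2, 4 or 5, and there were 10 without WT day 15 replicate 1.
The proliferation marker Mki67 was not among them. It had a lowest, median and highest intensity of 412, 592 and 1052 in KO tumors, against 619 to 978 in untreated KO, and 483, 595.5 and 972 in WT tumors, against 591 to 809 in untreated WT. Tumor and untreated arrays overlapped over most of their range, and the differences were -0.22 ± 0.25 in KO (adjusted p = 0.627) and -0.12 ± 0.25 in WT (adjusted p = 0.792). Top2a differed by 0.36 in KO (adjusted p = 0.401) and by 0.70 ± 0.26 in WT (adjusted p = 0.0506). Aurkb had a lowest, median and highest intensity of 73, 101.5 and 174 in KO tumors, against 74 to 138 in untreated KO, and 92, 96 and 182 in WT tumors, against 66 to 87 in untreated WT. Across the 46 genes the tumor differences of KO and WT had r = 0.85, again a description over genes.

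The lists of DNA replication genes and G1 regulators held a larger share of rises in tumors than the mitosis genes. Over all genes, 10.8% rose in KO tumors and 12.6% in WT tumors. The mean log2 level of the 58 other mitosis genes was 5.864 to 6.640 in KO tumors, against 5.739 to 6.198 in untreated KO. In WT it was 5.926 to 6.462 in tumors, against 5.585 to 6.029 untreated. Of 45 DNA replication genes, 13 rose in KO tumors and 33 in WT tumors, with medians of 0.40 and 0.69. In WT tumors the replication initiation factor Gins1 differed by 1.63 ± 0.25 (adjusted p = 1.72e-05), and in KO tumors the ribonucleotide reductase subunit Rrm2 by 1.21 ± 0.24 (adjusted p = 0.000388). Of 16 regulators of G1, 6 rose in KO tumors and 8 in WT tumors. Of 20 inhibitors, 2 rose and 5 fell in KO tumors and 2 rose and 7 fell in WT tumors. The inhibitors that rose are near the share over all genes, and the share of all genes that fell is not given here. Cdkn1c, a Cdk inhibitor, rose by 2.99 in KO and 3.10 ± 0.38 in WT, while Cdkn1a, the Cdk inhibitor p21, fell by 1.25 and 0.95.
The make-up of the tissue also differed. Of 10 smooth muscle markers, 9 fell in KO tumors and 10 in WT tumors, with sums of 2737 to 21289 in KO tumors, 24396 to 26811 in untreated KO, 8652 to 24556 in WT tumors and 28536 to 35823 in untreated WT. Of 12 stem and crypt markers, 8 rose in the tumors of each genotype. Of 12 macrophage markers, 1 rose in KO tumors (sums 5907 to 9682, against 2692 to 4179 untreated) and 9 in WT tumors (6480 to 9519, against 1264 to 2527). Of 11 absorptive colonocyte markers, 2 rose and 6 fell in KO tumors (sums 4063 to 13378, against 16700 to 22654 untreated), and 2 rose and 7 fell in WT tumors (4690 to 16381, against 15204 to 26643). Of 9 neutrophil markers, 4 rose in KO tumors and 2 in WT tumors. Falls of these markers are likewise given without the share of all genes that fell. The part of these markers in the tumor values of the mitosis genes was not tested.

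Tumors were also set against day 15. In KO, 2 of the 46 genes were higher in tumors than at day 15 (8.56% of all genes), Mad2l1 (0.74 ± 0.21, adjusted p = 0.0158) and Cdk1 (0.72 ± 0.24, adjusted p = 0.0374), and the median was 0.35. For none of the 46 were the KO groups free of overlap (9.59% of all genes). In WT, 43 were higher in tumors (12.2% of all genes), with a median of 1.21 and no overlap for 41 genes (11.3% of all genes). Ect2 had a lowest, median and highest intensity of 106, 137.5 and 200 in WT tumors, against 19, 47, 41 and 58 in WT at day 15, and differed by 1.84 ± 0.25 (adjusted p = 4.5e-06). Without WT day 15 replicate 1, 32 genes were higher in WT tumors and the median was 0.91.
KO and WT tumors did not differ in any of the 46 genes by limma (adjusted p = 1 for all, none with an unadjusted p under 0.05, 0.0526% of all genes called). The median difference was 0.08, with a range of -0.07 to 0.26. Mki67 differed by -0.03 ± 0.22 and Top2a by 0.00 ± 0.23. The interaction of genotype with the tumor change passed for none of the 46 genes (0.784% of all genes, smallest adjusted p of a member 0.787).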

How the data were processed

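Per the labels' protocols, biotin-labelled total RNA of minced colon was measured on Affymetrix arrays of the type HT MG-430 PM, 1 per sample. The authors deposited linear intensity values, 1 whole number per probe set. Their steps of background correction, normalization and summary were not given in the sources used here. With 45037 probe sets and 36 arrays, values ran from 4 to 14185. Arrays have no read depth, and their number and the background limit the precision.

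The log2 of each intensity plus 1 was quantile normalized. Of the probe sets, 28898 had 1 gene symbol, 551 several and 15588 none in the platform annotation used, and 28689 were matched to RefSeq by gene identifier. The brightest probe set per gene was kept, which left 17097 genes. Printed intensities are as deposited. Overlap of groups was judged on normalized values. A model with 1 mean for each of 8 groups was fitted with limma 3.58.1 in R 4.3.3 with moderated variances and an intensity trend, for 17 comparisons, and p-values were adjusted by Benjamini-Hochberg over all genes within a comparison, at a threshold of 0.05. The procedure was tested on simulated data.

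The mitosis genes, the other lists, the rule for naming genes and the alternatives were chosen with earlier results of these data known. The rule allowed every member to be named. Values by array were foreseen for Mki67, Cdk1, Top2a, Aurkb, Pbk and Plk1, and per comparison for up to 6 members past the threshold with the largest difference and up to 3 farthest against the members' median. Other lists gave up to 3 members of smallest p, and the genes most like the members were the 10 with the highest and 5 with the lowest correlation. Not all of these are printed, and Cks2 and Mki67 in tumors were singled out with their values seen. Alternatives are in the closing part. Refits of the further gene lists without the arrays that stand apart were chosen after seeing the data.

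Residuals of samples with the same replicate number were correlated to see whether the numbers mark pairs. In WT day 7 with untreated the correlations were 0.164 to 0.398, and in KO with WT on day 15 they were 0.174 to 0.801. In each of the other comparisons at least 1 pair was not above 0.1. No label states a pairing, so the fits were unpaired.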

Additional observations from a re-analysis of the deposited data

Results flagged for a closer look

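Within groups of 4 to 6 arrays, 240 sets of values were searched by Dixon's ratio for an array far from the rest of its group. In 33 sets an array stood out, where chance alone gives about 1 in 20 for a single set. Many sets come from the same arrays, and the mitosis genes move together, so the same array can stand out repeatedly. The 33 are therefore not separate observations, and their number cannot be compared with the chance rate. The values that stood out are given without an explanation. For the mean log2 level of the 46 mitosis genes, KO tumor replicate 2 (8.04) and WT tumor replicate 4 (7.78) were far above their groups, and WT day 15 replicate 1 (5.21) was far below its group.

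Of the 33, 9 belong to WT day 15 replicate 1, which besides that mean was far below the other arrays for Cdk1 (117), Ect2 (19), the chromatid-separating protease gene Espl1 (16), Mad2l1 (112), Mki67 (174), Pbk (29), Top2a (116) and Tpx2 (25). In WT tumors, replicate 4 was far above for Aurkb (182), Ccnb2 (476), the passenger gene Cdca8 (277), Cdk1 (902), the kinetochore gene Cenpf (373), Nusap1 (469), Pbk (504) and Prc1 (379). KO tumor replicate 2 was far above for Ccnb2 (675), Foxm1 (27) and the midzone motor gene Kif23 (58), KO day 15 replicate 2 for Ccnb2 (444), and KO untreated replicate 4 for Ccnb2 (543), Cdca8 (224) and Nusap1 (353).

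Single values stood out elsewhere. WT untreated replicate 3 was high for Cdca3 (571), and WT untreated replicate 4 was low for Foxm1 (12). The array labelled KO day 7 replicate 1 was high for Cdk1 (140) and low for Cenpf (67). At day 7 in WT, replicate 3 was low for Ect2 (21) and replicate 1 for Mad2l1 (79). For Il17rc, WT tumor replicate 6 was high (223).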

How the results depend on the processing

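No gene that passed turned its direction under any alternative. The median difference of KO and WT, 0.08 at day 7 and in tumors, was -0.12 and -0.05 without the arrays high in Krt5, and -0.01 at day 7 without the arrays labelled KO day 7 replicates 1 and 2. The falls at day 7 were 42 to 44 of 46 genes in KO and 38 to 42 in WT when each array was left out in turn, and the rise in KO from day 7 to day 15 was 43 to 44. With the replicate number as a block, the counts were 44 for KO day 7, 40 for WT day 7, 11 for WT day 15 against untreated and 2 for KO against WT at day 15, and no count moved by over 1.5 times. Other counts were less stable. For WT day 7 (40), the count was 26 with a block for the title code's letter and 20 without the arrays high in Krt5. For WT day 15 against untreated (13) it was 0 with only the groups compared or the letter block, 3 with a block for its number or without the arrays high in Krt5, and 1 to 20 without single arrays, with 2 without WT untreated replicate 1 or 3, and, of the day 15 arrays, 1 without replicate 1 and 20 without replicate 3. For WT day 15 against day 7 (15) it was 24 with centring or no normalization, 0 with only the groups compared, 26 with array weights, 4 without the arrays high in Krt5, and 8 to 29 without single arrays, with 8 without WT day 15 replicate 2 and 9 without replicate 4. For WT tumors against untreated (6) it was 12 with weights, 14 with the letter block, 0 with the number block, 2 without the arrays high in Krt5 and 1 to 10 without single arrays. For KO tumors against untreated (2) it was 4 with only the groups compared or weights, 1 with the letter or number block, without the arrays high in Krt5 or without KO tumor replicate 4, and 1 to 3 without single arrays. For KO tumors against day 15 (2) it was 1 in a fit of the 2 groups alone, with the letter or number block, without replicate 4 of day 15 or without KO tumor replicate 4, 0 without the arrays high in Krt5, and 0 to 6 without single arrays. WT tumors against day 15 gave 32 to 44. For KO against WT at day 15 (2) the count was 6 with centring or no normalization, 1 with a pseudocount of 16 or the number block, 4 without genes of a mean under 16, with weights or without replicate 4 of day 15, 0 with only the groups compared, and 0 to 6 without single arrays, namely 0 without WT day 15 replicate 1, 4 without KO tumor replicate 2 or WT tumor replicate 4, 5 without KO day 15 replicate 3 and 6 without WT day 15 replicate 4. At day 7, KO against WT (0) gave 3 higher and 3 lower with weights, 1 lower without the arrays high in Krt5, and 0 to 2 without single arrays, and the interaction at day 7 (0) gave 2 lower with weights. The causes were not tested. Values near background limit Foxm1, Tacc3 and the lowest day 7 intensities.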
